A study of Sus scrofa with 9 samples.

Results

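The smooth muscle contractile apparatus is described here through 38 listed genes: the filaments, the enzymes that switch myosin on and off, the anchoring proteins, the calcium handling proteins and 3 regulators. Members were taken from the expression table by gene name, and 37 of the 38 were found among its 21357 genes. FHL1 has no row under that name and was not analysed. The tissue was the lower abdominal aorta of Tibetan minipigs, a small breed of pig. For the normal control (NC) and atherosclerosis (H24) groups the paper describes males bought at a few months of age. From each of these groups 3 pigs were picked at random for sequencing. NC pigs ate a normal diet for 24 weeks. H8 pigs ate a high-fat diet for 8 weeks and are labelled as hypercholesterolemia, and H24 pigs ate it for 24 weeks and are labelled as atherosclerosis. The paper describes the diet of the atherosclerosis group as high in both fat and cholesterol, with shortening oil, cholesterol and egg yolk powder added to basal feed. Each group has 3 libraries. H8 is known from the sample labels alone, and the paper does not give the sex, age or selection of its pigs. Whole vessel pieces were sequenced, so each value averages over all cells of the piece. The H8 pigs were on the diet for a shorter time than the NC pigs, so diet and time cannot be told apart in the comparison of H8 with NC.

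Smooth muscle cells of the aortic media contract when calcium, bound to calmodulin, activates myosin light chain kinase, and relax when myosin phosphatase removes the phosphate again. Actin filaments are anchored in dense bodies and at adhesion sites in the membrane, the counterparts of the Z-discs of striated muscle. Many of these genes are switched on by serum response factor (SRF) with its coactivator myocardin (MYOCD), and in atherosclerosis smooth muscle cells are known to lower this program as they take on other states.

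Total counts per library ranged from 44094263 to 75787978, at which 3 counts correspond to between 0.0396 and 0.0680 CPM (counts scaled to the library total), for counting error only. H24 replicate 3 stood apart from the other libraries. Computed over genes, not over replicates, Pearson's r of its log2 CPM with the NC libraries was 0.824 to 0.825. H24 replicates 1 and 2 had 0.922 to 0.934 with the NC libraries, and NC libraries had 0.954 to 0.958 between them. With H24 replicates 1 and 2, r of H24 replicate 3 was 0.903 and 0.868. Log2 fold changes of named genes in H24 against NC are also given without H24 replicate 3. The summed FPKM (fragments scaled to transcript length and library total) of 11 macrophage markers was 32.8 to 45.1 in NC, 45.4 to 246 in H8, and 408, 254 and 2649 in H24 replicates 1 to 3. The 5 neutrophil markers found summed to 0.665 to 0.871 in NC, 3.34 to 6.77 in H8, and 20.8, 19.6 and 497 in H24. The 7 endothelial markers ranged from 52.4 to 165 and 7 fibroblast markers from 1443 to 3767. Skeletal muscle markers summed to at most 3.97 with MYL1 at 0, and heart muscle markers to at most 0.0174 with TNNT2 and NPPA at 0.

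In the normal aorta the contractile genes were among the most abundant transcripts. On the FPKM scale, which is per length and so allows genes to be compared, 8 members had a mean of at least 1000 in NC, 20 of at least 100 and 32 of at least 10, and 5 stood below 10. Of the 100 genes with the highest NC mean, 16 were members, and 7 members were in the first 20. The order began with ACTA2, smooth muscle alpha-actin, at 2939 ± 354 FPKM (SD, n = 3). CSRP1, a LIM protein of actin bundles, followed at 2926 ± 532, and TAGLN, an actin-binding protein used as an early smooth muscle marker, at 2827 ± 205. MYH11, the smooth muscle myosin heavy chain and the most specific marker of this cell type, had 2812 ± 482. These 4 genes overlapped between neighbours in the order and do not differ beyond their spread. Of the 36 neighbouring pairs in the order, 24 overlapped and 12 did not, and the first gap came between MYL6, the essential myosin light chain, at 1893 ± 117, and SMTN (smoothelin) at 1044 ± 66.3. The lowest levels were those of the kinases ROCK1 (8.01 ± 0.885) and ROCK2 (2.20 ± 0.308), which inhibit myosin phosphatase, the calcium release channel RYR2 (5.76 ± 0.784), the phosphatase subunit PPP1R12A (9.09 ± 3.12) and the focal adhesion protein LPP (3.45 ± 0.499). TAGLN had the highest mean in H8 and in H24.

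**Figure D1:**
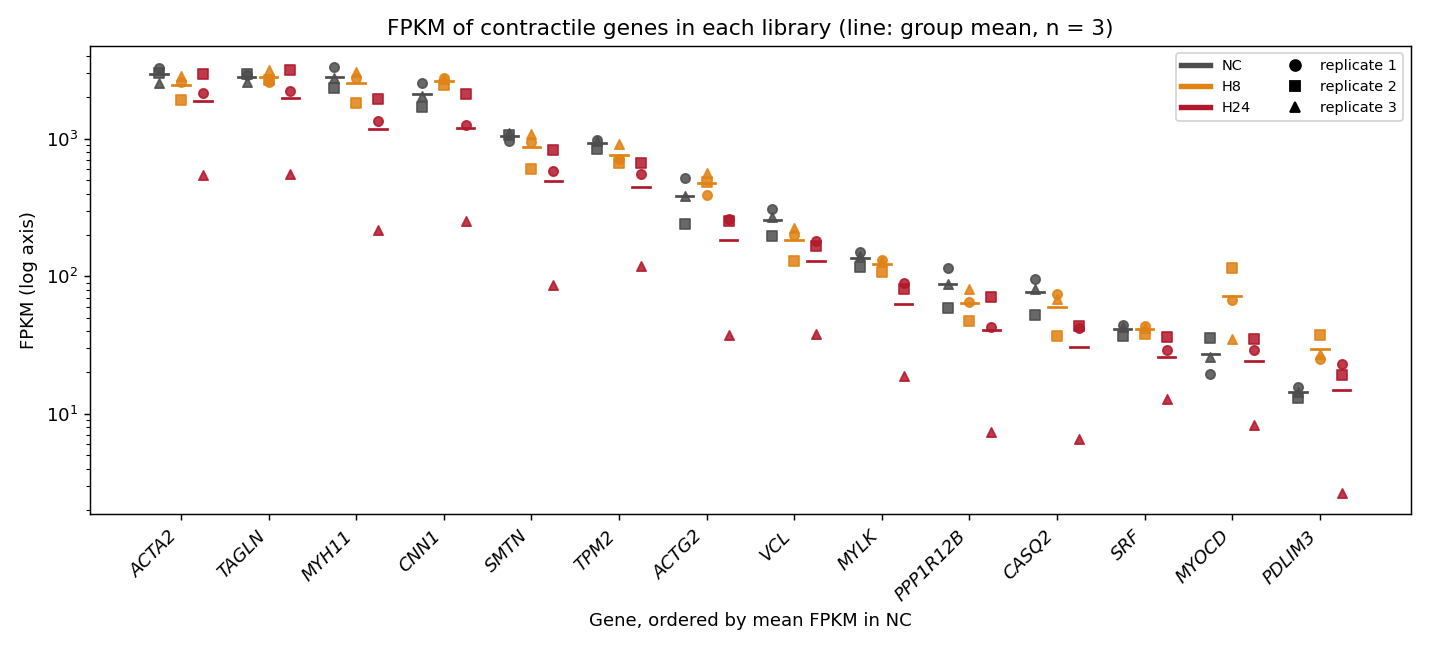
FPKM on a log axis of 14 contractile genes in every library (grey NC, orange H8, red H24; marker shape gives the replicate; line gives the group mean), ordered by their NC mean. H24 replicate 3, the red triangle, is the lowest of the 9 libraries for each gene drawn, and MYOCD and PDLIM3 have their highest values in H8.

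Together the 37 members took 10.6%, 8.81% and 9.01% of all FPKM in the NC libraries. In H8 they took 8.86%, 6.93% and 9.78%, and in H24 5.97%, 8.50% and 1.31%. Every H24 library was below every NC library, H24 replicate 2 lay within the range of H8, and H24 replicate 3 was far below all others. The mean share was 9.46% ± 0.955 in NC, 8.52% ± 1.45 in H8 and 5.26% ± 3.64 in H24 (SD, n = 3). By a two-sided exact permutation test p was 0.1 for H24 against NC, 0.5 for H8 against NC and 0.2 for H24 against H8, and 0.1 is the smallest p that 3 libraries against 3 allow. Without H24 replicate 3 the H24 mean was 7.23% ± 1.79 (SD, n = 2), with an exact permutation p of 0.1 against NC, the smallest that 2 against 3 allow, and of 0.4 against H8. In bulk tissue, fewer smooth muscle cells and less of these transcripts per cell cannot be told apart. In H24 replicate 3, where the share was lowest, the macrophage markers summed to 58.8 times the highest NC value, and all 11 of them were at their highest. The part of these markers in the lower share was not tested.

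**Figure D2:**
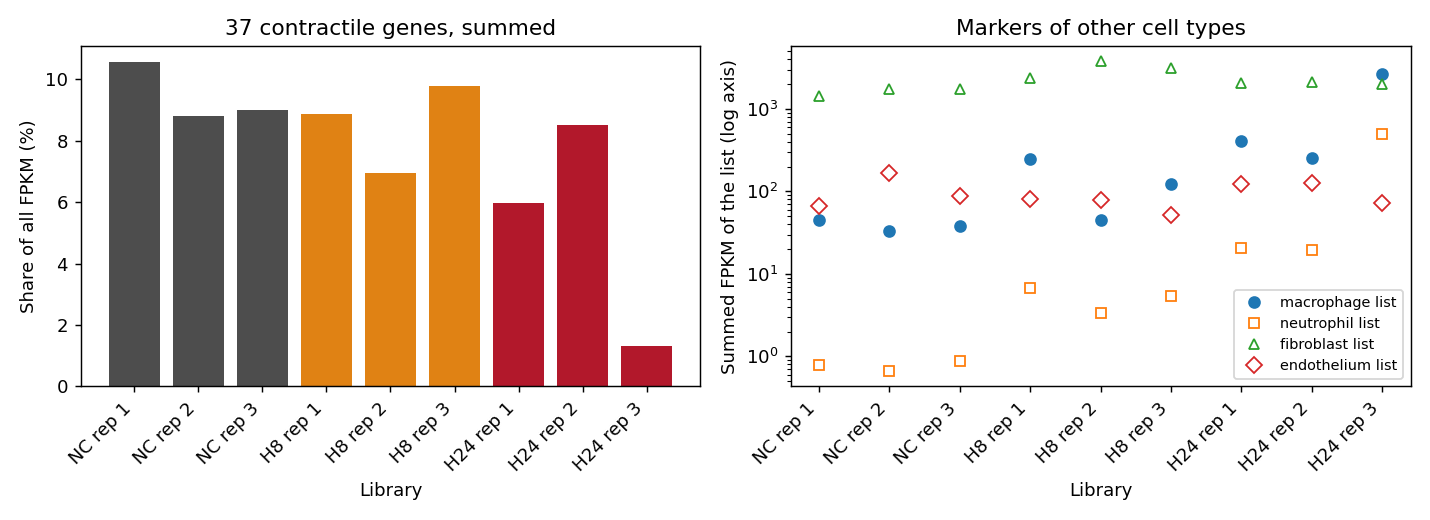
Left, share of all FPKM (%) taken by the 37 contractile genes in each library. Right, summed FPKM (log axis) of 4 marker lists of other cell types in the same libraries: H24 replicate 3 combines the lowest contractile share, 1.31%, with the highest macrophage sum, 2649 FPKM, while its fibroblast and endothelial sums are within the range of the other libraries.

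Library by library, the median member of H24 replicates 1, 2 and 3 stood at 72.0%, 83.4% and 19.6% of its NC level (log2 differences of -0.47, -0.26 and -2.35 from the NC mean of log2 FPKM). In H8 the same median was 97.5%, 88.9% and 104%. H24 replicate 1 had 25 of 37 members below every NC library, replicate 2 had 19 and replicate 3 had 35, where 23.4%, 33.4% and 36.1% of all genes were. The H8 libraries had 10, 20 and 6 such members, against 34.9%, 45.9% and 30.1% of all genes.

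**Figure D3:**
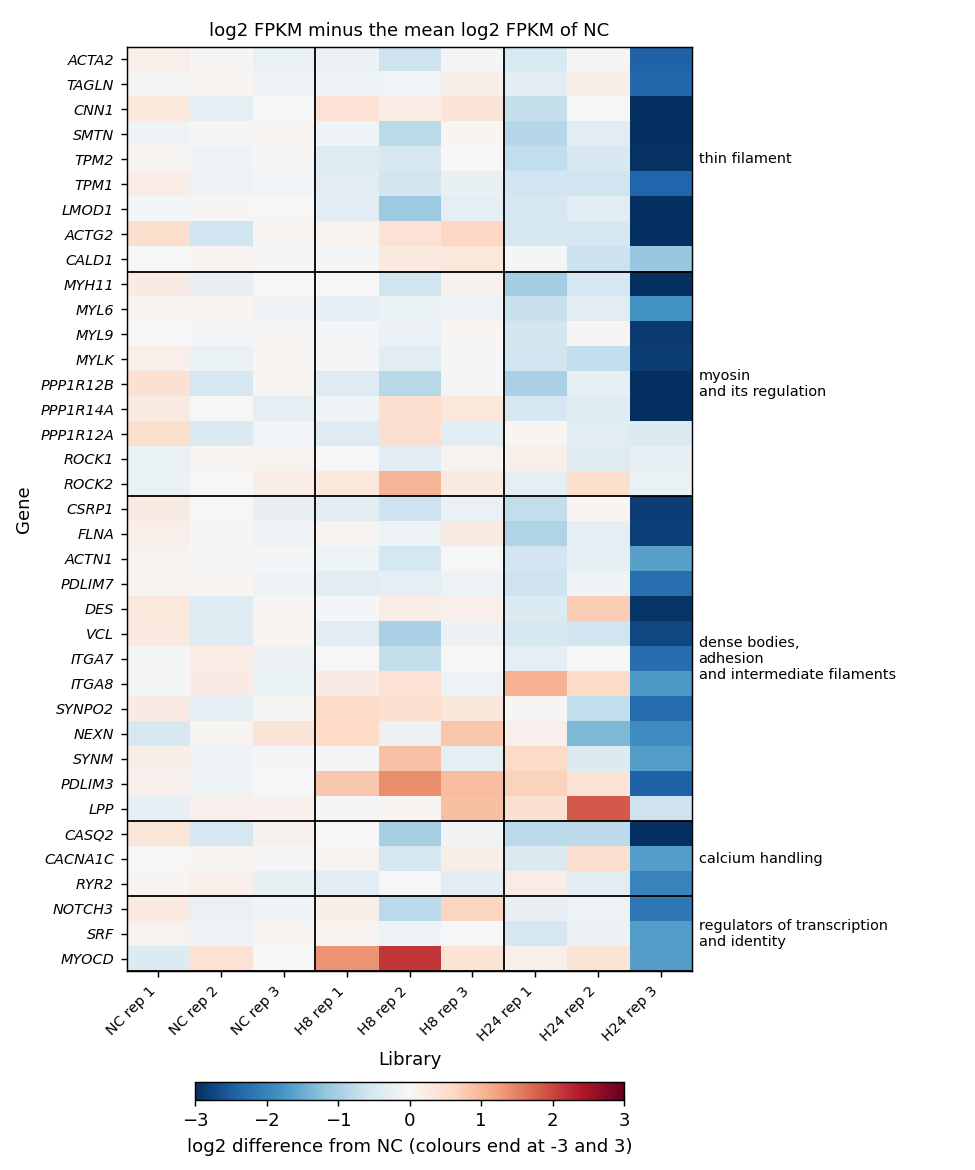
Log2 FPKM of each of the 37 members minus its mean log2 FPKM in NC, for the 9 libraries and grouped by role (blue lower, red higher, colours ending at -3 and 3). The column of H24 replicate 3 is blue throughout, H24 replicates 1 and 2 are mostly pale blue with single red genes such as ITGA8 and LPP, and H8 is mostly pale, with MYOCD and PDLIM3 its reddest rows.

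The comparison of H24 with NC asks how the contractile genes of an atherosclerotic aorta compare with those of a normal aorta at the same week. Most members had lower values in H24, but none passed the thresholds. Of 37 members 33 had a negative log2 fold change, with a median of -0.74, while the median of all 14828 genes tested was 0.01 and 49.4% of them were negative. None was called lower by the rule of the study, an unadjusted p under 0.05 with a log2 fold change beyond 1 in size (1.52% of all genes were called lower and 9.95% higher). None reached an unadjusted p under 0.05 in edgeR's quasi-likelihood test in either direction, the lowest adjusted p was 0.422, and 0% of all genes had an adjusted p under 0.05. DESeq2 called 3 members lower by the same rule (1.98% of all genes), with a lowest adjusted p among the members of 0.280. limma also called 3 with a pseudocount of 0.1 (2.12% of all genes) and 3 with a pseudocount of 1 (0.951%). edgeR called 2 without H24 replicate 1 (2.74% of all genes) and 4 without H24 replicate 2 (3.09%). In 13 members every H24 library was below every NC library, against 7.8% of all genes. With H24 replicate 3 left out, 29 of 37 members were lower with a median of -0.34, against -0.02 for all genes. Then 8 members had an unadjusted p under 0.05 and were lower (2.84% of all genes were), 3 were higher at that p (8.22% of all genes were), of which LPP was also past the size of the rule (6.49% of all genes), and no member had an adjusted p under 0.05, as 2.1% of all genes had. Every remaining H24 library was below every NC library in 13 members, and in 10.7% of all genes. In the comparison with all libraries 11 of 11 macrophage markers and 4 of 5 neutrophil markers were called higher in H24, and their part in the lower contractile values was not tested. The paper does not state the form of its edgeR test, so only its thresholds are shared here. Its own down-regulated genes were enriched for muscle contraction and vascular smooth muscle contraction. In tissue sections it reported more staining for smooth muscle actin in atherosclerosis.

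**Figure D4:**
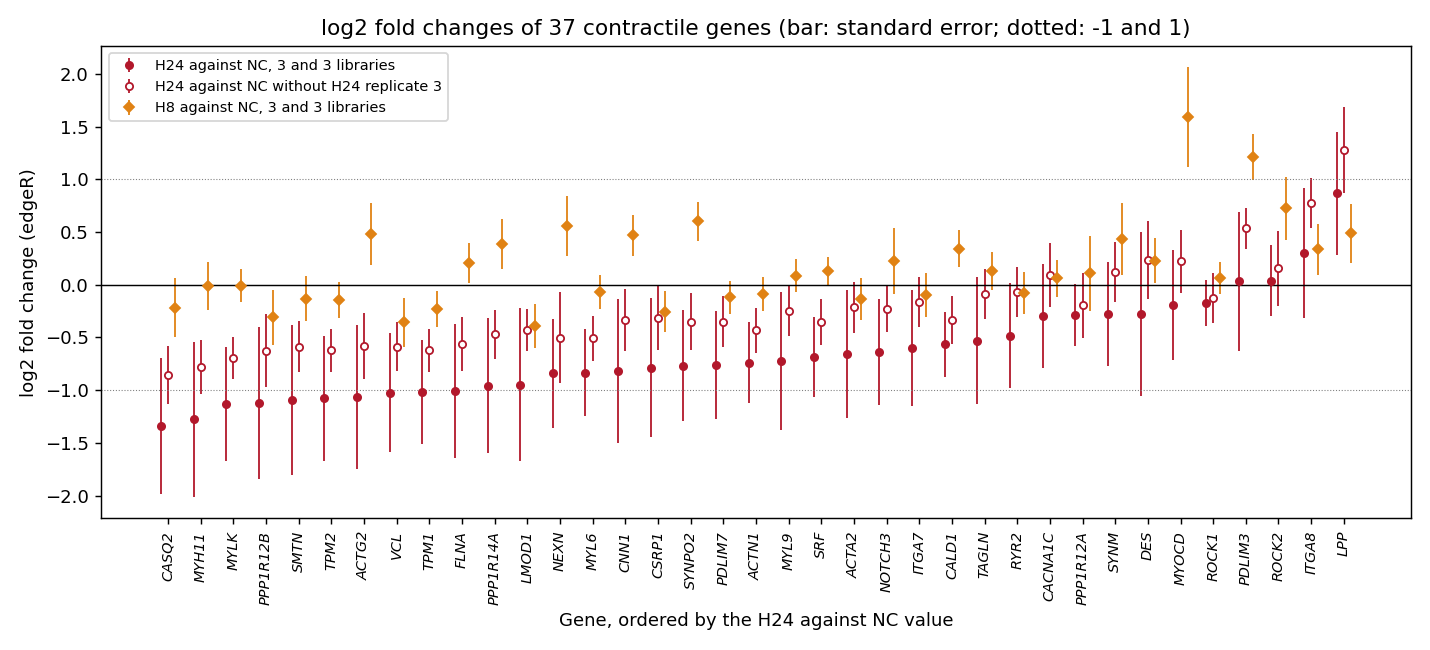
Log2 fold change with its standard error (edgeR) of the 37 members for H24 against NC with all libraries (filled red), the same without H24 replicate 3 (open red) and H8 against NC (orange), ordered by the first. Without H24 replicate 3 the negative red points move up, most staying below 0, and nearly all their bars shorten, and the H8 points lie on both sides of 0, with MYOCD at 1.59 and PDLIM3 at 1.21 the highest.

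The 9 thin filament members were all lower in H24 than in NC, with a median log2 fold change of -0.95 (-0.43 without H24 replicate 3), and 4 of them (TPM1, TPM2, SMTN and LMOD1) did not overlap between the groups. ACTA2 had 3261, 2995 and 2560 FPKM in NC, 2587, 1913 and 2847 in H8, and 2144, 2976 and 545 in H24. H24 replicate 2 was at the level of NC, so the groups overlapped, and the log2 fold change of -0.66 (SE 0.61, adjusted p = 0.678 in edgeR) was near its error. It was -0.22 (SE 0.24) without H24 replicate 3. TAGLN had 2904, 2982 and 2594 FPKM in NC, 2592, 2687 and 3175 in H8, and 2215, 3177 and 554 in H24. Its highest and its lowest values of all libraries were H24 libraries. CNN1, calponin, which restrains the myosin ATPase, had 2568, 1704 and 2052 FPKM in NC, 2786, 2444 and 2709 in H8, and 1258, 2105 and 253 in H24. H24 replicate 2 was again inside the NC range, and the log2 fold changes of TAGLN and CNN1 were -0.53 (SE 0.60) and -0.82 (SE 0.68), or -0.09 (SE 0.24) and -0.33 (SE 0.30) without H24 replicate 3.

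SMTN, a protein of contractile but not of proliferating smooth muscle, separated more clearly. It had 969, 1066 and 1096 FPKM in NC, 950, 600 and 1081 in H8, and 579, 826 and 87.1 in H24, a log2 fold change of -1.09 (SE 0.71, adjusted p = 0.552) that was -0.59 (SE 0.24, adjusted p = 0.421) without H24 replicate 3. All 3 H24 libraries were below NC, while H8 replicate 2 was close to H24 replicate 1. TPM2, the beta-tropomyosin that lies along the actin filament, had 987, 848 and 958 FPKM in NC, 715, 669 and 919 in H8, and 558, 666 and 119 in H24. Its log2 fold change was -1.08 (SE 0.59, adjusted p = 0.483), and without H24 replicate 3 it was -0.62 (SE 0.20, adjusted p = 0.275). ACTG2, the smooth muscle gamma-actin, had 523, 238 and 382 FPKM in NC, 389, 489 and 561 in H8, and 261, 255 and 37.6 in H24. Low NC and high H24 values of ACTG2 overlapped, and its log2 fold change was -1.07 (SE 0.69), or -0.58 (SE 0.31) without H24 replicate 3. TPM1 had a log2 fold change of -1.02 and LMOD1, which nucleates actin, of -0.95, and CALD1, caldesmon, which ties actin to myosin, had one of -0.56. Without that library they were at -0.62, -0.43 and -0.34.

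Of the 9 members for myosin and its regulation, 8 were lower in H24, with a median log2 fold change of -0.83 (-0.47 without H24 replicate 3). MYH11 (chromosome 3, 7002706 to 7143100 on the plus strand of Sscrofa11.1) had 3317, 2356 and 2763 FPKM in NC, 2782, 1831 and 3055 in H8, and 1348, 1950 and 218 in H24. Every H24 library was below every NC library, and H24 replicate 3 held 7.76% of the NC mean, the lowest share of any member. Its log2 fold change was -1.28 (SE 0.73, adjusted p = 0.50), and -0.78 (SE 0.26, adjusted p = 0.274) without that library. MYLK, the kinase that starts contraction, had 150, 118 and 141 FPKM in NC, 132, 108 and 130 in H8, and 90.1, 81.4 and 18.7 in H24. The groups did not overlap, and H24 replicates 1 and 2 lay close together at 66.0% and 59.7% of the NC mean. The log2 fold change of MYLK was -1.13 (SE 0.55, adjusted p = 0.422), and without H24 replicate 3 it was -0.69 (SE 0.20) with an adjusted p of 0.193, the lowest among the members.

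PPP1R12B, a targeting subunit of the opposing phosphatase that is enriched in muscle, had 116, 59.1 and 87.8 FPKM in NC, 64.9, 47.3 and 81.2 in H8, and 43.0, 70.9 and 7.42 in H24, a log2 fold change of -1.12 (SE 0.72, adjusted p = 0.545), or -0.62 (SE 0.34) without H24 replicate 3. NC replicate 2 was below H24 replicate 2, so the groups overlapped. Its widely expressed counterpart PPP1R12A had a log2 fold change of -0.29 (SE 0.29). PPP1R14A, which inhibits the phosphatase, was at -0.96 without overlap between the groups, whereas the kinases ROCK1 and ROCK2, found in most cell types, were at -0.17 and 0.04. The light chains MYL6 and MYL9 were at -0.83 and -0.72, and MYL6 did not overlap between the groups. Without H24 replicate 3 the values were -0.20 for PPP1R12A, -0.47 for PPP1R14A, -0.12 for ROCK1, 0.16 for ROCK2, -0.51 for MYL6 and -0.25 for MYL9.

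Among the 13 members of dense bodies, adhesion sites and intermediate filaments, 10 were lower in H24 (median log2 fold change -0.74, or -0.32 without H24 replicate 3). VCL, vinculin, which links actin to integrin and cadherin sites, had 311, 195 and 269 FPKM in NC, 199, 129 and 226 in H8, and 182, 167 and 38.0 in H24. All H24 libraries were below NC but so was H8 replicate 2, and the log2 fold change was -1.02 (SE 0.56, adjusted p = 0.485), or -0.59 (SE 0.23, adjusted p = 0.407) without H24 replicate 3. The actin crosslinkers FLNA and ACTN1 were at -1.01 and -0.74 without overlap between the groups. The intermediate filament genes DES and SYNM were both at -0.28, and DES ranged in H24 from 45.2 to 576 FPKM, below and above all NC libraries. ITGA7, a laminin-binding integrin subunit, was at -0.60. Without H24 replicate 3 FLNA, ACTN1 and ITGA7 were at -0.56, -0.43 and -0.16, and DES and SYNM at 0.24 and 0.12.

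The members with a higher level and an unadjusted p under 0.05 once H24 replicate 3 was left out were ITGA8, LPP and PDLIM3, all of this group, and they were named after their values were seen. ITGA8, the alpha subunit of an integrin of contractile smooth muscle, had 144, 176 and 130 FPKM in NC, 176, 203 and 135 in H8, and 307, 219 and 45 in H24. H24 replicates 1 and 2 were its highest libraries and H24 replicate 3 its lowest. The log2 fold change was 0.30 (SE 0.62) with all libraries and 0.77 (SE 0.24, adjusted p = 0.235) without H24 replicate 3. LPP had 2.87, 3.74 and 3.73 FPKM in NC, 3.30, 3.58 and 6.44 in H8, and 4.68, 12.2 and 2.24 in H24, and its log2 fold change was 0.87 (SE 0.58) with all libraries and 1.28 (SE 0.41, adjusted p = 0.260) without that one. PDLIM3, a PDZ and LIM domain protein that binds alpha-actinin, had log2 fold changes of 0.03 (SE 0.66) and 0.54 (SE 0.19, adjusted p = 0.331). In limma on log2 FPKM with all libraries, ITGA8 and PDLIM3 were lower in H24.

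Of the 3 calcium handling members, CASQ2 had the most negative log2 fold change of any member. This calsequestrin, which buffers calcium in the sarcoplasmic reticulum (chromosome 4, 104918501 to 104982852), had 95.3, 52.6 and 81.4 FPKM in NC, 75.0, 37 and 68.9 in H8, and 42.1, 43.3 and 6.52 in H24. H24 was below NC throughout, but H8 replicate 2 was lower than H24 replicates 1 and 2. The log2 fold change was -1.34 (SE 0.64, adjusted p = 0.422), and -0.86 (SE 0.27, adjusted p = 0.253) without H24 replicate 3. CACNA1C, the pore of the L-type calcium channel, was at -0.30 and RYR2 at -0.48, and without that library they were at 0.09 and -0.07.

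The 3 regulators had log2 fold changes between -0.68 and -0.19. SRF had 44.1, 37 and 43.1 FPKM in NC, 43.6, 37.9 and 41.9 in H8, and 29.1, 36.4 and 12.8 in H24, a log2 fold change of -0.68 (SE 0.38, adjusted p = 0.486), or -0.35 (SE 0.22) without H24 replicate 3. H24 replicate 2 was just below the lowest NC library, and H8 was within NC. MYOCD (chromosome 12, 56931150 to 57029258) had 19.6, 35.4 and 26.1 FPKM in NC, 67.0, 115 and 34.9 in H8, and 29.4, 34.9 and 8.32 in H24. H24 replicates 1 and 2 were inside the NC range, and the log2 fold change was -0.19 (SE 0.52), or 0.22 (SE 0.30) without H24 replicate 3. NOTCH3, the Notch receptor of arterial smooth muscle, was at -0.64, or -0.23 without that library.

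H24 replicate 3 differed widely between members in how far they stood below NC. It was the lowest of the 9 libraries for 34 of 37 members, and its log2 differences from the NC mean ran from -3.67 for MYH11 to -0.20 for ROCK2, with an SD of 0.94 across members. The NC libraries had SDs of 0.13 to 0.23 across members, H24 replicates 1 and 2 had 0.49 and 0.55, and H8 had 0.34 to 0.70. The lowest levels after MYH11, as a share of the NC mean, were those of LMOD1 (7.95%), SMTN (8.35%), PPP1R12B (8.48%), CASQ2 (8.53%) and ACTG2 (9.87%). At the other end were ROCK2 (86.6%), ROCK1 (83.8%), PPP1R12A (72.0%), LPP (65.0%) and CALD1 (45.2%). All of these except CALD1 were among the members with the lowest NC levels, but RYR2, also among those, stood at 24.7%. ACTA2, TAGLN and TPM1 stood at 18.6%, 19.6% and 19.0%. This is 1 library, so the order has no replicate check.

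**Figure D5:**
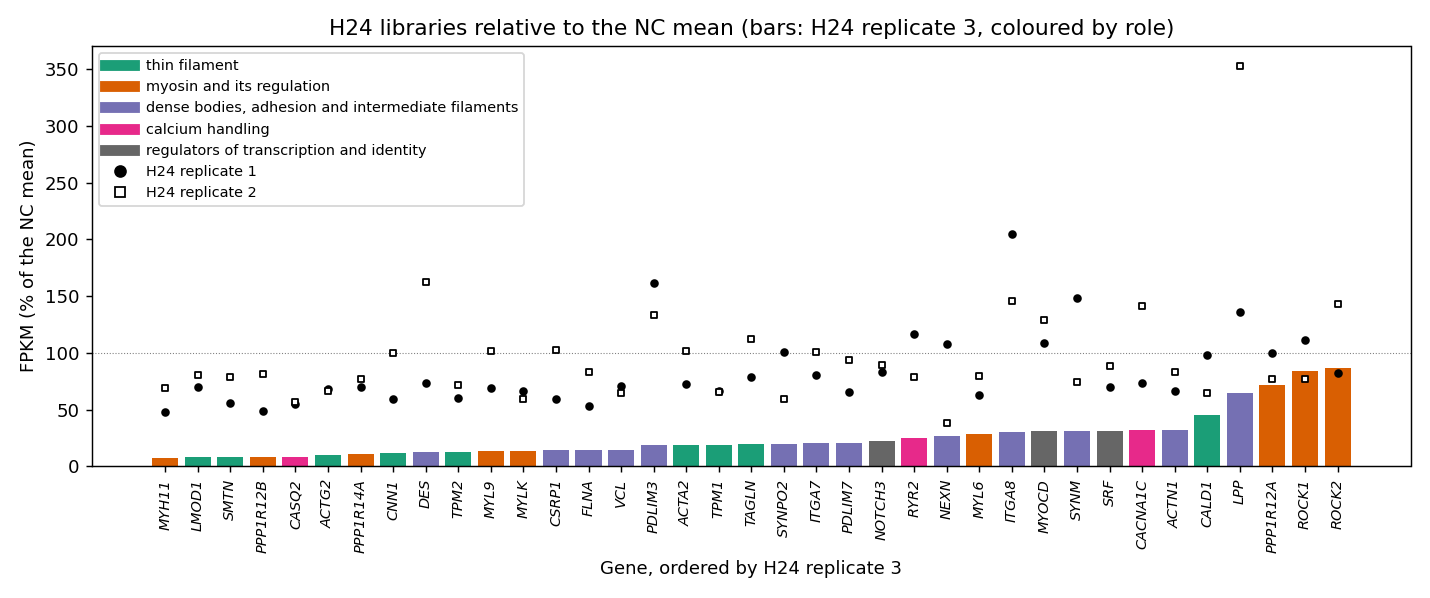
FPKM of the 37 members as a percentage of their NC mean, in H24 replicate 3 (bars, coloured by role) and in H24 replicates 1 (filled circles) and 2 (open squares). Bars rise from 7.76% for MYH11 to 86.6% for ROCK2, and both other H24 libraries lie above the bar in all genes drawn except ROCK1 and ROCK2, where 1 lies below it.

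The comparison of H8 with NC asks how the contractile genes stood in the aorta early on the diet. They were near their NC level as a set: 16 of 37 were lower and the median log2 fold change was 0.09, against 0.01 for all genes. By edgeR 2 were called higher by the rule of the study (5.11% of all genes were) and none lower (2.27% of all genes were). None had an adjusted p under 0.05 in edgeR, as 0.0279% of all genes had, while 5 were higher with an unadjusted p under 0.05 (8.89% of all genes were), and DESeq2 gave 2 an adjusted p under 0.05 (5.75% of all genes). On the FPKM scale every H8 library was below every NC library in 4 members, TPM1, LMOD1, MYL6 and PDLIM7 (15.9% of all genes), and above in 3, ROCK2, SYNPO2 and PDLIM3 (6.91% of all genes). In edgeR the first 4 had log2 fold changes of -0.23, -0.39, -0.07 and -0.12.

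The 2 genes called higher in H8 were MYOCD and PDLIM3. MYOCD had a log2 fold change of 1.59 (SE 0.47, adjusted p = 0.233), with 72.4 ± 40.5 FPKM in H8 and 27.0 ± 7.94 in NC (SD, n = 3). H8 replicates 1 and 2 were above all NC libraries, but H8 replicate 3 was just below NC replicate 2, so the groups overlapped. PDLIM3 (chromosome 15, 46513449 to 46546546) had 15.6, 13 and 14.4 FPKM in NC, 25, 37.4 and 27.0 in H8, and 23.2, 19.2 and 2.65 in H24. All H8 libraries were above all NC libraries, and the log2 fold change was 1.21 (SE 0.22, adjusted p = 0.143). DESeq2 gave an adjusted p of 0.0191 for MYOCD and 0.00043 for PDLIM3. Without H8 replicate 2, the highest library of both genes, the log2 fold changes were 0.98 and 0.93 and neither was called. The other 3 members with an unadjusted p under 0.05 were SYNPO2, an actin-binding protein of dense bodies (log2 fold change 0.60, adjusted p = 0.239), CNN1 (0.47, adjusted p = 0.317) and ROCK2 (0.72, adjusted p = 0.328). SRF, the partner of MYOCD, was at 0.13, and ACTA2, MYH11 and TAGLN were at -0.14, -0.01 and 0.13.

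The comparison of H24 with H8 covers the later weeks of the same diet. Here 36 of 37 members were lower in H24, with a median log2 fold change of -0.79 against 0.04 for all genes. By edgeR 3 were called lower by the rule of the study (3.05% of all genes were), none higher (7.22% of all genes were), and none had an adjusted p under 0.05 (0.0135% of all genes had). The called members were MYOCD at -1.79 (SE 0.67), NEXN, an actin-binding protein, at -1.41 (SE 0.53), and SYNPO2 at -1.38 (SE 0.56), with adjusted p of 0.341, 0.341 and 0.353. MYOCD in H8 replicate 3 equalled H24 replicate 2 to 3 digits, while the other H8 libraries were above all H24 libraries. SYNPO2 had 111, 106 and 94.6 FPKM in H8 and 76.4, 44.7 and 15.2 in H24, without overlap. NEXN had 64.9, 37.9 and 76 in H8 and 47.3, 16.9 and 11.8 in H24, with H24 replicate 1 above H8 replicate 2. In 12 members every H24 library was below every H8 library, among them CNN1, CALD1, MYLK, FLNA and SRF, against 6.31% of all genes. The comparison shares the H24 libraries with that of H24 and NC.

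Without H24 replicate 3, 33 of 37 members were lower than in H8 (median -0.40), and 3 were again called lower (2.5% of all genes were). ACTG2, with a log2 fold change of -1.07 (SE 0.28), took the place of SYNPO2, which was at -0.97 (SE 0.30). NEXN and MYOCD stayed past the rule at -1.07 and -1.38. CNN1 was at -0.81 (SE 0.34) and PDLIM3 at -0.69 (SE 0.29). With all H24 libraries, leaving out H8 replicate 1, 2 or 3 reduced the called members to 1 each time (2.88%, 1.67% and 2.97% of all genes), and leaving out H24 replicate 2 gave 5 (4.65%). Scaling by library size alone also left 1 (1.96%), and shifted the median of all genes to 0.24.

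A list of 46 other smooth muscle genes (non-muscle actins and tropomyosins, adhesion and membrane proteins, channels and chaperones) had 40 in the table. Of these 33 were lower in H24 than in NC, with a median log2 fold change of -0.60 (-0.24 without H24 replicate 3). By the rule of the study 3 were called lower and 1 higher (1.52% and 9.95% of all genes were). None had an adjusted p under 0.05, as 0% of all genes had. With H24 replicate 3 left out, 1 was called lower and 0 higher (1.28% and 6.49% of all genes were). CAVIN1, a caveolar coat protein, was at -1.93 (SE 0.56, adjusted p = 0.206) and SORBS2, an adaptor of actin and adhesion sites, at -1.38 (SE 0.49, adjusted p = 0.286), and without H24 replicate 3 at -1.62 and -0.999, where SORBS2 was just inside the size of the rule. CAVIN1 was uneven in NC, from 75.5 to 258 FPKM. The tropomyosins TPM3 and TPM4, also made by non-muscle cells, had positive values, unlike TPM1 and TPM2. TPM3 was at 1.64 (SE 0.54, adjusted p = 0.262), with 10.0 to 12.1 FPKM in NC and 21.6, 16.3 and 67.8 in H24. TPM3 was at 0.74 (adjusted p = 0.199) and no longer called without H24 replicate 3, its highest library. TPM4 had a log2 fold change of 0.71 (SE 0.26), which is past the p but not the size of the rule, and 66.8 to 85.4 FPKM in NC against 148, 103 and 140 in H24, and it was at 0.66 without H24 replicate 3. In H8 against NC this list had 2 genes called higher and none lower (5.11% and 2.27% of all genes were). In H24 against H8 it had 6 called lower and none higher (3.05% and 7.22% of all genes were). Without H24 replicate 3 it had 3 lower (2.5% of all genes were) and 0 higher (547 of all 14589 genes were).

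A list of 24 regulators of the contractile program (myocardin-related factors, Kruppel-like, Notch and TGF-beta pathway genes) had 23 in the table. KLF4 was missing, and 22 were tested in H8 against NC. None was called in any of the 3 comparisons. In H24 against NC 1.52% of all genes were called lower and 9.95% higher. The shares were 2.27% and 5.11% in H8 against NC, and 3.05% and 7.22% in H24 against H8. The median log2 fold change of the list in H24 against NC was -0.08, and 12 of the 23 were lower (49.4% of all genes were). Without H24 replicate 3 the median was 0.01 and 11 were lower. The lowest p were those of TCF21, KLF5, TGFBR1 and TGFBR2, with adjusted p of 0.485 to 0.543, and TCF21 did not exceed 0.386 FPKM in any library.

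Of 15 markers that smooth muscle cells are known to raise when they leave the contractile state, all found, 5 were called higher in H24 than in NC and none lower, with all libraries and without H24 replicate 3. Over all genes 9.95% were called higher and 1.52% lower with all libraries, and 6.49% and 1.28% without that one. The median log2 fold change of the 15 markers was 0.47 (0.41 without that library), and 5 of them had a negative value. None of their adjusted p was under 0.05 with all libraries (0% of all genes), and 5 were without H24 replicate 3 (2.1% of all genes). TNFRSF11B, osteoprotegerin, had 4.95 to 8.76 FPKM in NC, 5.74 to 10.2 in H8, and 43.1, 38.7 and 32.2 in H24, a log2 fold change of 2.44 (SE 0.30, adjusted p = 0.126), or 2.54 (adjusted p = 0.00851) without H24 replicate 3. All H24 libraries were higher than all others, and H24 replicate 3 was the lowest of the 3. LUM, a small proteoglycan, and VCAN, a large one, had log2 fold changes of 2.69 and 2.49, with adjusted p of 0.126 and 0.129. They were at 2.61 and 2.40 without H24 replicate 3, with adjusted p of 0.00875 and 0.0134. SPP1, osteopontin, which macrophages also make, was at 5.43 (adjusted p = 0.132) with 181, 56.8 and 861 FPKM in H24 against 5.97 to 9.81 in NC, and at 3.78 (adjusted p = 0.00942) without H24 replicate 3. In H8 against NC, 3 genes of this list were called higher (5.11% of all genes were), and 5 were in H24 against H8 (7.22%). Without H24 replicate 3 the comparison of H24 with H8 had 3 higher and 1 lower. Of all 14589 genes 547 were called higher there and 2.5% lower. Fibroblasts express several of these genes, and LUM is also in the fibroblast list. That list summed to 1443 to 1726 FPKM in NC, 2338 to 3767 in H8 and 2021 to 2117 in H24. In H24 replicate 3 COL1A1 and COL1A2 had 981 and 780 of the 2021 FPKM. COL1A1, COL1A2, LUM and PDGFRA were above all NC libraries there, DCN and DPT below (DCN 80.0 against 172 to 226), and PI16 within their range. The part of fibroblasts in these values was not tested.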

How the data were processed

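RNA from the abdominal aorta of minipigs (9 libraries, 3 each in NC, H8 and H24) was sequenced from poly(A) mRNA with paired ends. Alignment by the authors used HISAT 2.0 and the pig genome Sscrofa11.1, and they deposited FPKM values from StringTie 1.3.0 for 21357 genes. The deposited table also holds estimated counts (expected counts, whole numbers not scaled for depth), and how the authors derived them and the annotation release are not given in the sources used here. The submitters' processing notes further name the mouse build mm8 and Bowtie 0.12.2, and the extraction protocol speaks of an adipose type. All 37 members lie in the table where RefSeq places the gene of that symbol in Sscrofa11.1, and the tissue was taken from the labels. Whether counting used strand is not stated. Reads of members and of genes on the other strand may therefore be mixed where they overlap (TAGLN and PCSK7, MYH11 and NDE1, PPP1R14A and SPINT2, VCL and AP3M1). FLNA and RPL10 overlap on the same strand, and the near-identical ACTA2 and ACTG2 may share reads.

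Counts were tested with edgeR 4.0.16 (R 4.3.3; TMM, quasi-likelihood, two-sided) within the libraries of 2 groups, for genes whose mean FPKM there reached 0.1, which every member passed. p-values were adjusted by Benjamini-Hochberg over all genes tested. The rule called that of the study is p under 0.05 with a log2 fold change beyond 1 in size. The paper names edgeR but not the form of its test, so the quasi-likelihood test was a choice made here. SE is the size of the log2 fold change over the root of the F statistic. Whether groups overlapped was read from FPKM, which is not scaled by TMM as the fold changes are. The fit was tested on simulated counts with known changes and no outlying library, which says nothing of its power with H24 replicate 3. Alternatives were DESeq2 1.42.0, limma 3.58.1 on log2(FPKM + 0.1) and log2(FPKM + 1), other scalings, filters and sample sets, a replicate block, and each library left out. p-values measure the spread between these libraries, which the methods describe as separate pigs for NC and H24. At the lowest depth, 44094263 counts, 3 counts taken as the floor correspond to 0.0680 CPM.

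The members and all lists were chosen with earlier results of these data known. Values in every library are given for the 8 members with the largest log2 fold changes in H24 against NC and for ACTA2, MYH11, TAGLN, CNN1, MYOCD and SRF. Those of PDLIM3, SYNPO2, NEXN, LPP and ITGA8 were added after their values were seen. From each other list up to 4 genes with the smallest p in H24 against NC were named.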

Additional observations from a re-analysis of the deposited data

Results flagged for a closer look

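ACTG2 and CNN1 were flagged because every H8 library was above the NC mean and every H24 library below it. Set against the single NC libraries, both genes overlapped with NC in H8 and in H24. ACTG2 was at 102% to 147% of the NC mean in H8 and at 9.87% to 68.5% in H24, and its log2 fold change between H24 and H8 was -1.55 (SE 0.70, adjusted p = 0.383 in edgeR). CNN1 was at 116% to 132% in H8 and at 12% to 99.8% in H24, with a log2 fold change of -1.29 (SE 0.73, adjusted p = 0.452). Neither difference passed the threshold, and H24 replicate 2 of CNN1 was within 1% of the NC mean. The pattern of opposite sides was found in 2 of 37 members (5.41%) and in 685 of 13972 genes (4.90%), so it was not particular to the members.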

How the results depend on the processing

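The number of members called lower in H24 against NC, 0 in the main analysis, was 3 in DESeq2 (1.98% of all genes), 3 in limma with pseudocounts of 0.1 (2.12%) and 1 (0.951%) and 2 with all 9 libraries in one fit (1.69%). It was 0 to 4 when single libraries were left out (0.923% to 3.09% of all genes). Without H24 replicate 3 1 member was called higher (6.49% of all genes), otherwise 0. In H8 against NC, 2 members had an adjusted p under 0.05 in DESeq2, as 5.75% of all genes had. The 2 members called higher, along with 733 of all 14336 genes, became 1 in limma on log2(FPKM + 1), where 202 genes were called higher. With all 9 libraries 1 member and 534 genes were called higher. When single libraries were left out, 0 to 2 members and 569 to 796 genes were. The median of the members there, 0.09, was -0.07 and -0.06 in limma (pseudocounts 0.1 and 1) and -0.07 with library size only, which moved the median of all genes to -0.13. In H24 against H8 the 3 called lower became 6 in DESeq2 (3.92% of all genes), 5 with all 9 libraries (3.38%), 1 with library size only (1.96%), and 1 to 5 when single libraries were left out (1.67% to 4.65%). The replicate numbers did not pair the libraries (r of deviations -0.05 to 0.07). With them as a replicate block the counts of called members were 0, 2 and 3 as before, and the medians were -0.96, 0.07 and -0.99.

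The genes whose sign turned were these. Against NC in H24, PDLIM3 was -0.43, -0.34 and -0.38 and ITGA8 -0.04, -0.04 and -0.04 in limma (0.1, 1) and under the block. Against NC in H8, TAGLN and SRF were -0.01, -0.01 and -0.02 in limma (0.1, 1) and with library size only. ITGA8 in H24 against H8 was 0.17 with library size only. When single libraries were left out, H24 against NC ranged from -0.59 to 0.22 in MYOCD, -0.38 to 0.54 in PDLIM3, -0.18 to 0.77 in ITGA8 and -0.05 to 1.28 in LPP. H8 against NC ranged from -0.12 to 0.12 in MYH11, -0.09 to 0.05 in MYLK and -0.27 to 0.03 in SMTN, and H24 against H8 from -0.58 to 0.79 in LPP and -0.52 to 0.42 in ITGA8. The medians of the members ranged from -1.18 to -0.34, 0.02 to 0.11 and -1.23 to -0.40 in the 3 comparisons. Of 810 alternative values of single genes, 745 kept direction and side of the threshold. The cause of these changes was not tested.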
